A study of Mus musculus with 9 samples.

Results

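Genes of cyclic nucleotide and protein kinase A (PKA) signalling were followed through a transposon screen of mouse Sonic hedgehog (SHH) medulloblastoma, a tumour of the cerebellum. The set was chosen by name from the gene column of the deposited insertion table: symbols that start with Adcy and a digit (without Adcy2), with Pde and a digit, with Prkar or with Akap, together with Prkaca, Prkacb, Gnas and Gpr161. This gave 59 of the 22353 gene symbols in the table. They are 9 adenylyl cyclases, 26 Pde symbols, 2 catalytic and 4 regulatory PKA subunits, 16 A-kinase anchoring proteins, the G protein subunit Gnas and the receptor Gpr161.

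Adenylyl cyclases make cAMP, phosphodiesterases break down cAMP, cGMP or both, and cAMP frees the catalytic subunits of PKA from the regulatory ones. In cerebellar granule neuron precursors PKA restrains SHH signalling, because it phosphorylates GLI transcription factors and so favours their processing into repressors. GNAS and the ciliary receptor GPR161 act upstream of PKA as brakes on the pathway, and loss of GNAS is a known cause of SHH medulloblastoma.

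The tumours came from Lazy Piggy mice, whose transposon joins a Sleeping Beauty (SB) and a piggyBac (PB) part, and each arm received tamoxifen or did not. The TAM+ arm held 72 animals with tamoxifen and the TAM- arm 47 animals without it, all of the lazy_piggy genotype, and each animal gave 1 primary tumour sample. The donor of the transposon lay on chromosome 10 in 53 TAM+ and 37 TAM- animals, and on chromosome 7 in 19 TAM+ and 10 TAM- animals. The sources used here name neither ages nor the alleles that drive the tumour and the transposases, and no RNA was measured, so the tumour type could not be checked against its markers. IR libraries read insertion sites from the SB part, PB libraries from the PB part and JX libraries from the boundary of both parts. All coordinates are on mm9.

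To be called in an animal, a site needed 10 or more counts and 1% or more of what that animal's highest site of the same library kind had. Where several animals called 1 site, the animal with the highest share received it, and a gene was hit in an animal when a credited site was assigned to it. Sites listed in at least 3 animals with no animal above 50% of the counts are named spread and are marked as such below. Total IR counts per animal had a median of 3115243 (295999 to 6337624) in TAM+ and 3143569 (1236372 to 5553180) in TAM- animals. The medians were 441808 (116836 to 2025775) in TAM+ and 287429 (154247 to 1559890) in TAM- animals for JX, and 204964 (1714 to 1719651) in TAM+ and 216967 (6650 to 2853048) in TAM- animals for PB.

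Some libraries went against their labels. Each library was set against the IR sites of all 119 animals read from the opposite transposon end. In 15 of the 16 left-end JX libraries of lane 4, another animal's sites held at least 10 times as many counts as the labelled animal's own: the own sites held a median of 0.00822% of the counts, against 17.1% in the 103 left-end JX libraries of other lanes. The lane 4 libraries included 6 reciprocal pairs, of which 2 joined a TAM+ and a TAM- animal. Another 28 libraries of 18 animals met the same criterion, out of 714 checked. An insertion can be read almost only from 1 end, as at the strongest sites of Pde7b and Pde4d. This can lower the own share. In the right-end libraries of TAM+ animal 25, sites of TAM- animal 11 held 87.01% (IR), 86.48% (JX) and 93.01% (PB) of counts. The left-end IR and JX libraries of TAM+ animal 25 also matched TAM- animal 11. In the PB libraries of TAM+ animal 43, sites of TAM+ animal 2 held 88.62% (left end) and 94.71% (right end). The lowest such share was 1.353%, in the right-end PB library of TAM+ animal 65. Whether whole animals were mislabelled was not tested. Libraries that went against their labels gave no counts to the 9 IR sites described here. They gave counts to 3 of 31 JX sites (1 of Pde1c, and 2 of Pde4d with 1 and 6 such counts) and to 1 of 16 PB sites (of Adcy7).

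Of the 59 genes, 28 had a called site in at least 1 of the 119 animals and 31 had none. Sites at no spread position lay in 21 genes. Spread JX positions of Adcy8, Akap5, Akap6, Akap10, Akap17b, Pde1c, Pde3a, Pde6h and Pde8b were also called at the same place in control DNA. Control DNA had called sites within 117 bp of spread JX positions of Akap7, Pde2a and Pde4d. The counts of genes and animals hit include spread positions. By library kind, IR sites hit 7 genes (11.9%), JX sites 21 (35.6%) and PB sites 12 (20.3%). Over all symbols of the table the shares were 6.35% for IR, 16.4% for JX, 7.83% for PB and 20.8% for any kind. The larger share went with more listed positions per gene, which were counted in the same animals and include the called sites. The 59 genes had a median of 89 listed positions (11 to 1014), against 29 over all symbols, and they held 0.628% of listed positions as 0.264% of the symbols. Per 1000 listed positions they had 1.16 IR, 3.99 JX and 2.06 PB sites, against 1.50 IR, 4.25 JX and 1.96 PB sites over all genes.

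**Figure D1:**
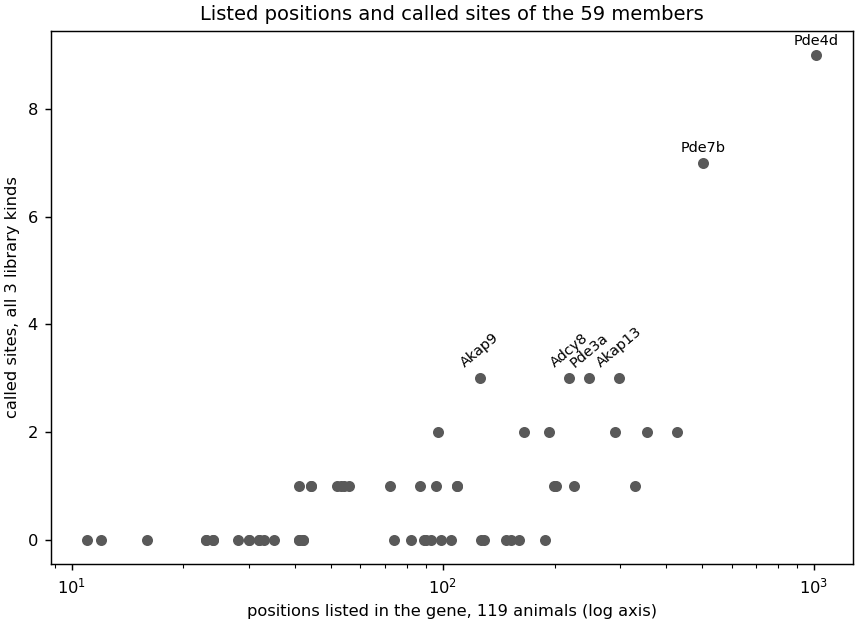
Called sites (all 3 library kinds, 119 animals) against the number of positions listed in each of the 59 genes (log axis), with 1 point per gene. Pde4d, with 1014 listed positions, had the most called sites (9), and genes with few listed positions had 0 or 1.

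In that plot genes with more listed positions had more called sites, with a Spearman rank correlation of 0.648 over the 59 genes, which share libraries and depth. Called sites are themselves listed positions, so part of this correlation is built in. Without the 44 libraries that went against their labels or lay among the left-end JX libraries of lane 4, IR sites hit 7 of the genes, JX sites 23 and PB sites 11, and 5 spread JX sites (of Akap7, Pde1c, Pde2a, Pde6h and Pde8b) were credited to other animals.

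A hit in any of the genes was found in 17 of 72 TAM+ animals (23.6%) and 13 of 47 TAM- animals (27.7%). By kind the counts were 5 TAM+ (6.94%) and 2 TAM- animals (4.26%) for IR, 14 TAM+ (19.4%) and 9 TAM- animals (19.1%) for JX, and 9 TAM+ (12.5%) and 4 TAM- animals (8.51%) for PB. As a share of all called sites, sites in these genes made up 0.455% in TAM+ and 0.259% in TAM- for IR, 0.456% in TAM+ and 0.459% in TAM- for JX, and 0.599% in TAM+ and 0.442% in TAM- for PB. Without the 44 doubted libraries, hits were found in 18 TAM+ and 16 TAM- animals over all kinds, 5 TAM+ and 2 TAM- for IR, 15 TAM+ and 13 TAM- for JX, and 9 TAM+ and 3 TAM- for PB. Genes hit with tamoxifen and not without it numbered 6 for IR, 12 for JX and 9 for PB, where 4.06%, 9.52% and 5.19% of all symbols showed that pattern. Genes hit without tamoxifen and not with it numbered 1 for IR, 6 for JX and 2 for PB, where 1.95%, 4.78% and 2.06% of all symbols did.

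**Figure D2:**
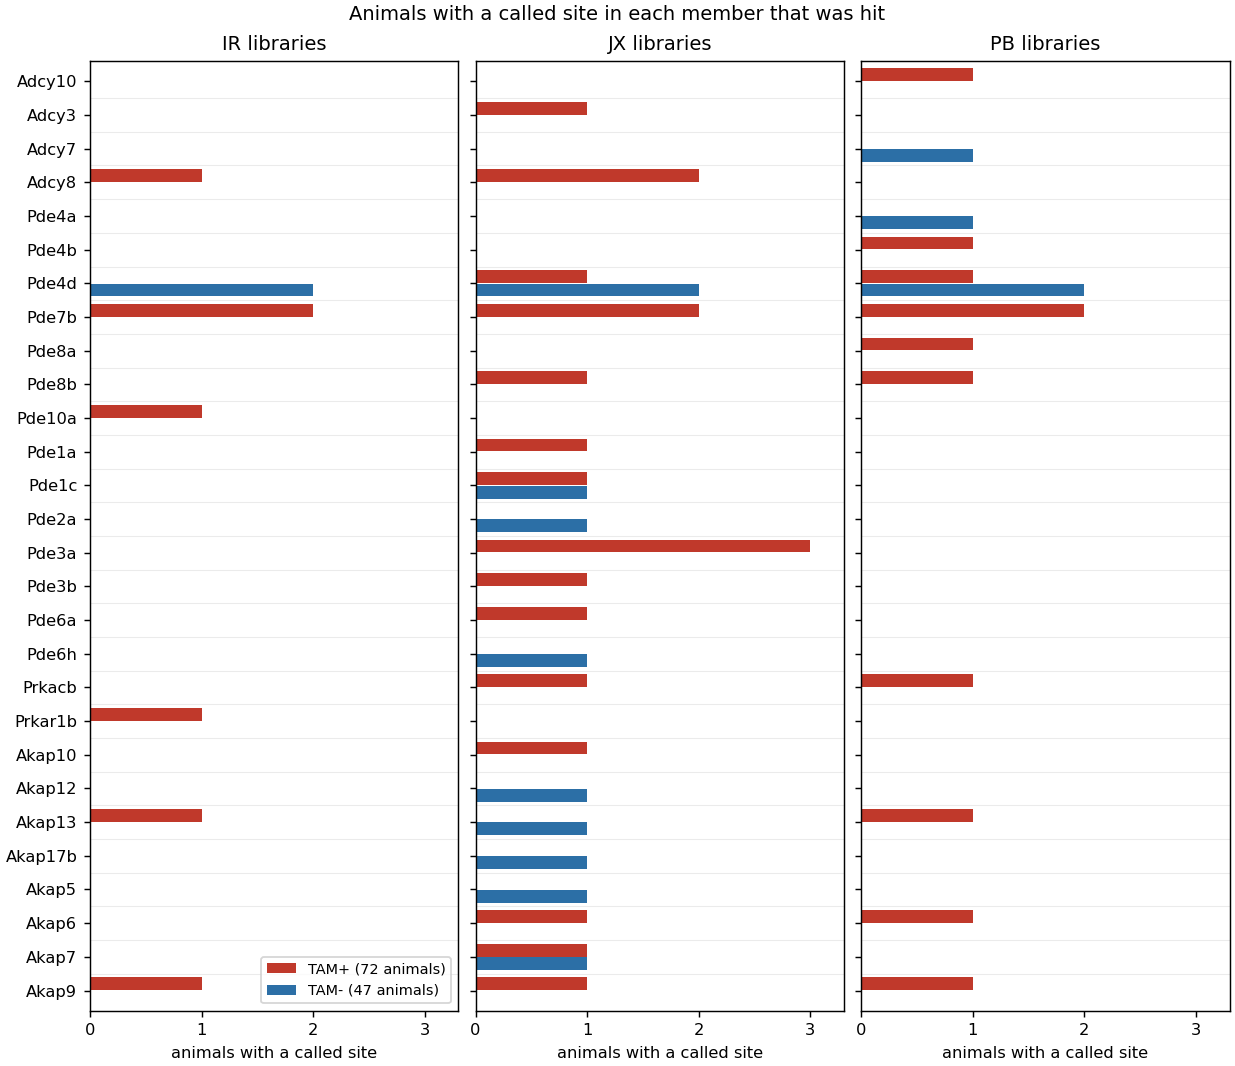
Number of animals with a called site in each of the 28 genes that were hit, by library kind, with TAM+ bars (72 animals) above TAM- bars (47 animals). No bar exceeds 3 animals, and the 3 TAM+ animals of Pde3a in JX libraries all carry spread positions.

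As that plot of animals per gene shows, most genes were hit once. A 2-sided Fisher's exact test per gene, adjusted by Benjamini-Hochberg over all genes hit in at least 3 animals, could be made for 2 of the genes in JX libraries (Pde3a and Pde4d), for 1 in PB libraries (Pde4d) and for 0 in IR libraries, where 1.09%, 0.246% and 0.179% of all symbols qualified. None passed, at an adjusted or an unadjusted p under 0.05, and none did when the arm was permuted within lanes. Over the whole table the test called 0 of 40 IR, 0 of 244 JX and 0 of 55 PB genes (0.0%), and the unadjusted p was under 0.05 for 0, 2 (0.82%) and 1 (1.82%) of them. With these group sizes a gene hit only in TAM+ animals needs 7 of them to reach an unadjusted p under 0.05, and a gene hit only in TAM- animals needs 4.

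Neither Gnas nor Gpr161 carried a called site. Gnas, the stimulatory G protein alpha subunit, had 82 listed positions and none that was called in 119 animals, which allows a share of animals of up to 2.52%. Its highest position reached 0.430% of an animal's highest site in IR libraries, 0.699% in JX and 0.415% in PB libraries, below the 1% needed for a call. Counts in Gnas took 0% to 0.0654% of IR counts in TAM+ animals and 0% to 0.0390% in TAM- animals, with a median of 0% in both. Gpr161, the ciliary receptor that raises cAMP, had 42 listed positions, and its highest position reached 0.0960% of an animal's highest site in IR libraries and 0.155% in PB libraries. Gnas had counts in 35 TAM+ and 20 TAM- animals in IR libraries, in 24 TAM+ and 25 TAM- animals in JX libraries and in 6 TAM+ and 6 TAM- animals in PB libraries.

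Of the 9 adenylyl cyclases 4 were hit, at 6 sites in 5 TAM+ animals and 1 TAM- animal. Adcy8, a calcium-stimulated cyclase of the brain, was hit in 3 TAM+ animals and in 0 TAM- animals, a count of 0 that allows up to 6.38% of them. Its IR site lay in intron 1 at chr15:64735233 and held 9386 counts in TAM+ animal 40, 0.251% of that animal's IR counts. Its JX sites were a spread position in intron 2 at chr15:64668088 with 44 counts and a site 73.3 kb upstream at chr15:64827110 with 41 counts.

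Adcy10 encodes the soluble cyclase, which bicarbonate stimulates and G proteins do not. It had a PB site 4.56 kb downstream of the gene at chr1:167511465 in TAM+ animal 9, with 109 counts and 1.04% of the animal's PB counts (95% Clopper-Pearson interval 0.852% to 1.25%). Adcy3, the cyclase of neuronal cilia, had a JX site in intron 2 at chr12:4181545 in TAM+ animal 53, with 1482 counts or 0.279%. Adcy7 had a PB site in intron 3 at chr8:90826276 in TAM- animal 31, with 597 counts or 0.567%. All 597 came from a right-end PB library that matched TAM+ animal 37 (47.4% of counts) better than TAM- animal 31 (0.212%), and without that library Adcy7 had no called site. No cyclase site held more than 1.04% of an animal's counts of its kind. The right-end PB library of TAM+ animal 9 matched TAM+ animal 61 (41.3% of counts against 0.529% at its own sites). Without that library the Adcy10 share was 1.15%.

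Among the phosphodiesterases, the 8 genes whose enzymes select cAMP (Pde4, Pde7 and Pde8) held the most sites, 21 in 6 genes, in 7 TAM+ and 5 TAM- animals. Of these sites 9 lay in Pde4d and 7 in Pde7b, the genes with the most listed positions of the set (1014 and 504). An insertion called in several library kinds counted once per kind, and the classes were not compared per listed position. The 8 genes whose enzymes hydrolyse both nucleotides (Pde1, Pde2a, Pde3, Pde10a and Pde11a) had 10 sites in 6 genes, in 6 TAM+ and 2 TAM- animals. The 7 genes of the cGMP-selective enzymes (Pde5a, Pde6 and Pde9a), which include the inhibitory subunits Pde6g and Pde6h, had 2 sites in 2 genes. Pde4dip, Pde6d and Pde12, which carry the symbol without being cyclic nucleotide esterases, had none.

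Pde7b encodes a cAMP-specific phosphodiesterase that is expressed in the brain. It held the insertion with the highest share of the set, 28.2 kb upstream of the gene at chr10:20473086 in TAM+ animal 58, whose donor lay on chromosome 7. This insertion was called in all 3 library kinds. It had 165857 IR counts or 5.63% (interval 5.60% to 5.65%), 51556 JX counts or 5.80%, and 22949 PB counts or 5.98%, the PB position being chr10:20472977. The IR counts near it came from the left end (165823) and hardly from the right (36). It ranked 7 of 11 called IR sites, 3 of 8 JX sites and 4 of 8 PB sites of the animal, at 35.0% of the highest site in IR libraries. The insertion was thus one of a small number of strong sites in this tumour, at a like share in each kind.

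Pde7b had further sites in 2 other TAM+ animals. TAM+ animal 46 had an IR site in intron 1 at chr10:20422992 with 0.312% of counts. It ranked 40 of 334 called IR sites, in the animal with the most called IR sites and the lowest IR total (295999). Without TAM+ animal 46, Pde7b was hit in 1 TAM+ animal in IR libraries. TAM+ animal 40 had a JX site in intron 1 at chr10:20409600 with 0.148%, and PB sites in intron 1 at chr10:20400250 with 0.282% and in intron 2 at chr10:20236862 with 0.255%. These 3 sites of animal 40 lay kilobases apart and were each called in 1 kind. All animals with a Pde7b site, 3 of them, were in the TAM+ arm, and 0 of 47 TAM- animals had one. With a threshold of 0.1% of the highest site in place of 1%, TAM- animals had called sites too: 9 TAM+ and 1 TAM- animals were hit in IR, 5 TAM+ and 1 TAM- in JX, and 8 TAM+ and 4 TAM- in PB libraries. In each library kind, at the 1% threshold, the gene was hit in 2 TAM+ animals (2.78%, interval 0.338% to 9.68%) and 0 TAM- animals, too few to be among the genes tested. Such counts give a p of 0.518 by Fisher's exact test, outside the adjustment. Counts in Pde7b took 0% to 5.63% of IR counts (median 0.00105%) in TAM+ animals and 0% to 0.0795% (median 0.000643%) in TAM- animals, so the arms overlapped apart from a few animals. Pde7b lies on chromosome 10, the donor chromosome of TAM+ animal 46 but not of animals 40 and 58.

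**Figure D3:**
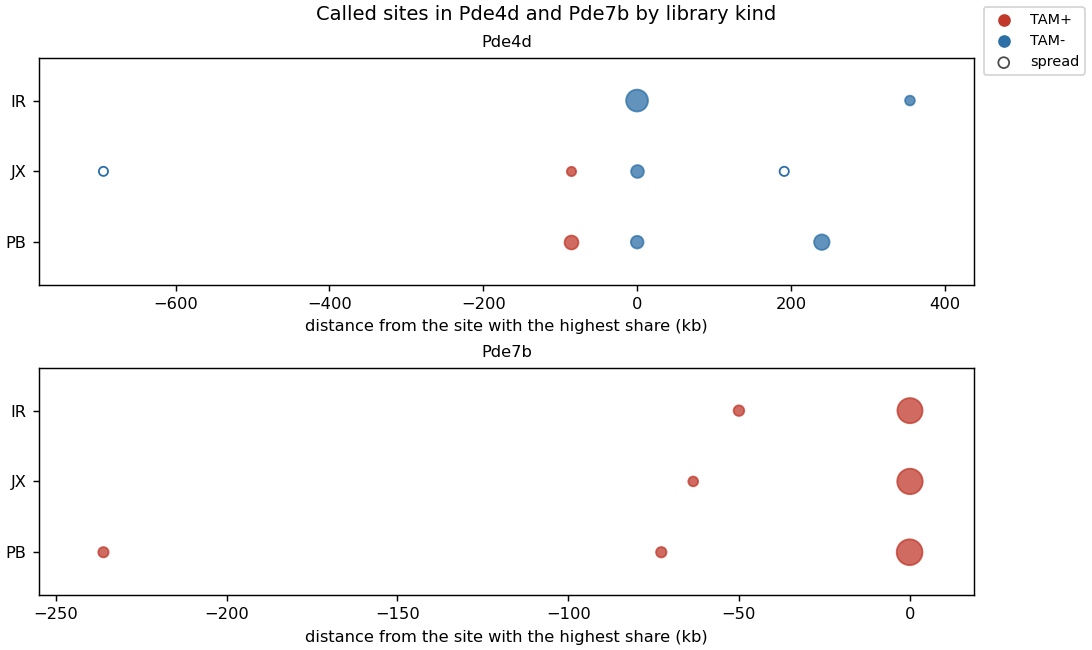
Called sites in Pde4d (upper panel) and Pde7b (lower panel) by library kind and by distance in kb from the gene's site with the highest share, with larger points for larger shares of the animal's counts. The Pde7b sites are all from TAM+ animals, and the sites at 0 kb appear in all 3 kinds in TAM+ animal 58 (Pde7b) and TAM- animal 3 (Pde4d).

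Pde4d, another cAMP-specific phosphodiesterase and a target of the PDE4 inhibitors, had the most listed positions (1014) and the most called sites (9). It was hit in 1 TAM+ and 4 TAM- animals over all kinds. The TAM+ site of Pde4d lay in intron 3 in animal 59, with 106 JX counts or 0.0452% at chr13:110295250 and 714 PB counts or 1.14% at chr13:110295282. The site with the highest share also lay in intron 3, at chr13:110381285 in TAM- animal 3, whose donor lay on chromosome 7. It had 151365 IR counts or 4.06% (interval 4.04% to 4.08%), 1826 JX counts or 0.846%, and 7458 PB counts or 0.809% at chr13:110381452. The IR counts near it were 150962 from the left end and 403 from the right. It ranked 7 of 16 called IR sites, 3 of 123 JX sites and 10 of 12 PB sites. The share was thus highest in the IR library of this tumour. At the same JX position 4033 counts were listed in the left-end library labelled TAM+ animal 66, one of the lane 4 libraries that matched other animals. Without those libraries the JX site was still credited to TAM- animal 3. Its own left-end JX library was among them, and without it the JX share was 1.20%.

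The other Pde4d sites were all in TAM- animals. TAM- animal 39 had an IR site in intron 13 at chr13:110736141 with 0.149% of counts. TAM- animal 41 had a PB site in intron 7 at chr13:110621533 with 981 counts or 1.62%. The remaining JX sites, in TAM- animals 46 and 3, were spread positions listed in 63 and 105 animals. In JX and in PB libraries alike the gene was hit in 1 TAM+ animal (1.39%) and 2 TAM- animals (4.26%), with an unadjusted p of 0.561 and an adjusted p of 1 by Fisher's exact test. The IR hits were 0 TAM+ and 2 TAM- animals, too few to be among the genes tested. Such counts give a p of 0.154 by Fisher's exact test, outside the adjustment. Without the 44 doubted libraries the JX hits were 2 TAM+ and 2 TAM- animals, a difference of -1.44 percentage points in place of -2.87. All 9 sites were intronic. The plot of distances cannot show whether animals shared a place within a library kind, because each site was credited to 1 animal. The Pde4d JX sites at chr13:110381285 and chr13:110572636 were called in 2 and 4 animals before credit. Each Pde7b site was called in 1 animal.

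The other cAMP-selective phosphodiesterases were hit at few counts. Their PB sites came from animals with PB totals of 10055 to 18059, far below the arm medians. Pde8b, a high-affinity cAMP phosphodiesterase, had a PB site in intron 4 at chr13:95872919 in TAM+ animal 31 (27 counts, 0.206%) and a spread JX position 2.97 kb upstream, listed in 51 animals, in TAM+ animal 65. Pde8a had a PB site 2.91 kb downstream at chr7:88481414 in TAM+ animal 26, with 18 counts. Pde4b had a PB site in intron 1 at chr4:102112433 in TAM+ animal 40, with 42 counts or 0.233%. Pde4a had a PB site in intron 1 at chr9:20976585 in TAM- animal 6, with 84 counts or 0.835%. The right-end PB library of that animal matched TAM+ animal 61 (62.5% of counts against 0.0% at its own sites), and without it the share was 2.71%. Pde4c and Pde7a had no called site.

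Pde3a, a cGMP-inhibited cAMP phosphodiesterase, was hit in JX libraries of 3 TAM+ animals and 0 TAM- animals, with an unadjusted p of 0.277 and an adjusted p of 1 by Fisher's exact test. All 3 sites were spread. The position 10.4 kb downstream at chr6:141458266 was listed in all 119 animals, was called in 54 of them and was also called in 5 control DNAs. It was credited to TAM+ animal 29, where it had 1767 counts or 0.778%. Counts in Pde3a took 0.00547% to 0.851% of JX counts (median 0.0936%) in TAM+ animals and 0.0137% to 0.670% (median 0.125%) in TAM- animals, so the arms overlapped. With each site credited to every animal that calls it, the percent of animals hit was lower in TAM+ than in TAM- animals (a difference of -5.88 percentage points), against a difference of 4.17 as first counted and of 2.10 without the 44 doubted libraries.

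The remaining phosphodiesterases that hydrolyse both nucleotides had sites in 1 or 2 animals. Pde10a, an enzyme of striatal neurons, had an IR site in intron 13 at chr17:9152372 in TAM+ animal 15, with 3671 counts or 0.121%. Pde1c, a calmodulin-dependent enzyme, had a spread JX position 55.9 kb upstream in TAM+ animal 46 and a JX site in intron 1 at chr6:56317298 in TAM- animal 25 with 0.130%. The spread site had 27 counts, all from a right-end JX library that matched TAM- animal 12 (6.39% of counts) better than TAM+ animal 46 (0.358%). Without the 44 doubted libraries Pde1c was hit in 0 TAM+ and 2 TAM- animals. The further hits of Pde1a (2 intronic sites of TAM+ animal 2), Pde2a and Pde3b were JX sites at 0.0633% or less, those of Pde2a and Pde3b being spread.

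Pde6a, the catalytic alpha subunit of the rod photoreceptor phosphodiesterase, held the highest JX site of its tumour. The site lay in intron 7 at chr18:61411597 in TAM+ animal 4, with 21469 counts or 4.02% (interval 3.97% to 4.07%), and ranked 1 of 181 called JX sites. Counts in Pde6a took 0% to 4.02% of JX counts in TAM+ animals, where the next highest animal had 0.00970%, and 0% to 0.000862% in TAM- animals. Within 100 bp the same animal listed 4063 IR and 3075 PB counts, too few for a call in those kinds. Pde6h, an inhibitory subunit of the cone enzyme, had a spread JX position 58.9 kb downstream in TAM- animal 22.

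**Figure D4:**
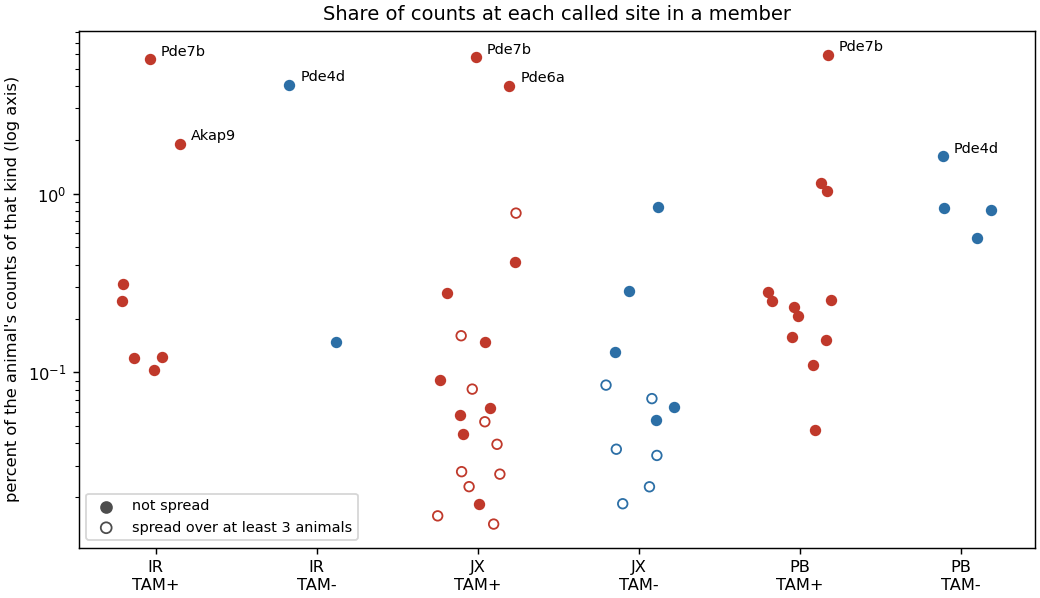
Percent of an animal's counts of a library kind (log axis) at each of the 56 called sites, by kind and arm, with TAM+ left of TAM-; open points are spread positions. The sites above 1.5% are those of Pde7b in TAM+ animal 58, Akap9 in TAM+ animal 62, Pde6a in TAM+ animal 4 and Pde4d in TAM- animals 3 and 41.

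Of the 6 PKA subunit genes 2 were hit, Prkacb and Prkar1b, each at low shares. Prkaca, the catalytic alpha subunit, had 32 listed positions and no called site, and no counts at all in JX libraries. Prkar1a, the regulatory subunit lost in Carney complex, had 42 listed positions and reached 0.157% of the highest site at its highest, in JX libraries. Prkar2a and Prkar2b, the type II regulatory subunits, reached 0.673% in PB and 0.717% in JX libraries at their highest, still below a call. For each of these 4 genes 0 of 119 animals were hit.

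Prkacb, the catalytic beta subunit, had a JX site in intron 9 at chr3:146397331 in TAM+ animal 2 (203 counts, 0.0905%) and a PB site in intron 1 at chr3:146450664 in TAM+ animal 31 (33 counts, 0.252%). Prkar1b, the neuronal type I regulatory subunit, had an IR site in intron 2 at chr5:139593869 in TAM+ animal 46, with 303 counts or 0.102%. These 3 sites ranked 137 of 689, 36 of 51 and 193 of 334 called sites of their animals and kinds. They were thus minor sites of tumours with many, and no TAM- animal had a called site in a PKA subunit.

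Of the 16 A-kinase anchoring proteins, which tether PKA to places in the cell, 8 were hit at 14 sites, in 6 TAM+ and 5 TAM- animals. Akap9, the anchoring protein of the Golgi and centrosome, had the strongest. It lay in intron 27 at chr5:4041002 in TAM+ animal 62, with 73027 IR counts or 1.90% and 2528 JX counts or 0.416%. A second site lay in intron 7 at chr5:3967305 in TAM+ animal 5, with 115 PB counts or 0.151%. Counts in Akap9 took 0% to 1.91% of IR counts in TAM+ animals, where the next highest animal had 0.0212%, and 0% to 0.0212% in TAM- animals. Thus 1 TAM+ animal stood above all others in both arms. TAM- animal 26 listed 826 IR counts (0.0212%) within 100 bp of chr5:4041002. Its right-end IR library went against its label and matched TAM+ animal 62 (81.8% of counts against 3.24% at its own sites).

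Akap13 was hit in all 3 kinds but by different insertions. TAM+ animal 15 had an IR site 45.8 kb downstream at chr7:82945255 (0.121%) and a PB site in intron 5 at chr7:82734231 (0.110%), on the chromosome of its donor. TAM- animal 12 had a JX site in intron 30 at chr7:82887178 with 0.284%. Akap6, the anchoring protein of the nuclear envelope, had a PB site in intron 2 at chr12:53912239 in TAM+ animal 2 and a spread JX position in TAM+ animal 31. Akap7 had a spread JX position 47.6 kb upstream in TAM+ animal 49, and a JX site in intron 6 at chr10:24953205 in TAM- animal 9 with 0.0642%. Without the 44 doubted libraries Akap7 was hit in 0 TAM+ and 2 TAM- animals. Akap12, a scaffold of PKA and protein kinase C, had a JX site in intron 2 at chr10:6007044 in TAM- animal 45. The hits of Akap5, Akap10 and Akap17b were spread JX positions, that of Akap5 being the 1 exonic site of the whole set.

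The 56 called sites came down to 50 insertions when sites of 1 animal within 1 kb were counted once, 35 in TAM+ and 15 in TAM- animals. At no spread position lay 34 of them, 25 in 13 TAM+ animals and 9 in 9 TAM- animals. Called in at least 2 library kinds were 4, those of Pde7b in TAM+ animal 58, Akap9 in TAM+ animal 62, and Pde4d in TAM+ animal 59 and TAM- animal 3. Introns held 7 of 9 IR (77.8%), 23 of 31 JX (74.2%) and 13 of 16 PB sites (81.3%) in these genes. Over all genes they held 58.5%, 54.3% and 59.0% of sites. The difference rests on few sites, some of them 1 insertion called in several kinds, and was not tested. Of the 50 insertions 14 lay on chromosome 10 or 7 and 6 on the donor chromosome of their animal. Spread positions made up 51.6% of JX sites in the set and 46.0% of all JX sites.

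The animals with a site in these genes also had many called sites elsewhere. The 17 TAM+ animals with one had a median of 181 called sites of all kinds, against 39 in the 55 TAM+ animals without. The 13 TAM- animals with one had a median of 103, against 51 in the 34 TAM- animals without. TAM+ animal 40 had the most sites in the set (6, in Adcy8, Pde3a, Pde4b and Pde7b), followed by TAM+ animal 2 (5), TAM+ animal 46 (4) and TAM- animal 3 (4, all in Pde4d). The part of this site number in the hits was not tested.

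Other genes of the pathway were taken from 8 lists of 66 genes outside the name rule: G protein alpha subunits, receptors, guanylyl cyclases, PKA inhibitors, other cAMP sensors, nucleotide-gated channels, CREB factors and hedgehog factors that act with PKA. Called sites were found in 25 of the 66 (37.9%), in 7 by IR (10.6%), 21 by JX (31.8%) and 7 by PB libraries (10.6%), beside the 20.8%, 6.35%, 16.4% and 7.83% over all symbols given above. These genes had a median of 64 listed positions, against 29 over all symbols. Only Gli3, the transcription factor that PKA steers towards its repressor form, was hit in enough animals to be tested. It was hit in 2 TAM+ and 2 TAM- animals in JX libraries, with an unadjusted p of 0.647 and an adjusted p of 1 by Fisher's exact test. TAM+ animal 40 had a Gli3 insertion 33.9 kb downstream at chr13:15855776 with 1.02% of IR and 0.508% of JX counts. The strongest Gli3 site lay in intron 3 at chr13:15669141 in TAM- animal 8, the highest site of the tumour in IR libraries with 43.9% of counts and in JX libraries with 8.41%. The right-end IR library of this animal was among those that matched another animal, and without it the IR share was 83.4%.

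Adcyap1r1, the receptor of the cAMP-raising peptide PACAP, had PB sites in TAM+ animal 9 (0.190% and 0.200%) and TAM- animal 3 (0.902%). The insertion of TAM- animal 3 lay in intron 12 at chr6:55431656 with 2.09% of IR counts. At that same position a JX site of 0.851% was credited to TAM+ animal 66, from the mismatched lane 4 library named above. Gucy1b2, a guanylyl cyclase subunit, had JX sites in TAM+ animal 57 (0.0339%, spread) and TAM- animal 5 (0.159%). Of the genes hit in 1 animal, 3 were picked after their values were seen. Pkia, an inhibitor of the PKA catalytic subunit, had a site in intron 1 at chr3:7414112 in TAM+ animal 60, with 3.65% of IR and 24.9% of JX counts, the JX count being 87.5% of that of the highest JX site. Cngb3, a nucleotide-gated channel subunit, had a site in intron 15 at chr4:19427412 in TAM+ animal 64 with 3.56% of IR, 2.71% of JX and 0.620% of PB counts. Gsk3b, a kinase that acts on GLI after PKA, had a site in intron 1 at chr16:38098967 in TAM- animal 40, called in all 3 kinds with 0.938% of IR counts.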

How the data were processed

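The members and gene lists were chosen with earlier results of these data known. The authors deposited 1 table of counts per library, position and gene, with gene part and orientation, and a sample sheet that gives each library's animal, end and arm. Genomic DNA was sheared, ligated to splinkerette adaptors, cut with BamHI and amplified from the SB part, the PB part or their boundary, per the labels' protocols. The build mm9 comes from the submitters' processing notes. No source used here names the aligner or the filters. Counts are PCR reads without molecular identifiers, so intervals on shares of counts cover counting error only. The limit given for 0 animals is 3 animals over the number in the group.

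From the deposited counts, positions of an animal within 10 bp were merged, and sites were called and credited as described in the report. Libraries of both ends were added. The animal was the replicate. Leading zeros in animal names were dropped, and 2 animals with conflicting arms, 8 in all without a given arm, 5 control tumours and 9 control DNAs entered no comparison. Each gene hit in at least 3 animals was tested with Fisher's exact test (scipy 1.17.1, 2-sided) and Benjamini-Hochberg adjustment over all genes tested. In data simulated for genes of each library kind, with 200 genes planted at 30% of TAM+ and 2% of TAM- animals, 98.5% were recovered. In the PB data 1 gene that was not planted was also called. The planted TAM+ rate was above that of every gene in the set, at most 4.17% (Pde3a in JX libraries). Recovery at such low rates was not measured. For the library check, places listed in at least 20 animals with no animal above 50% of counts were left out, and counts within 300 bp of IR sites called in at most 2 animals were added per animal. A library went against its label when the best other animal held at least 1% and at least 10 times the own share. Genes were named by a rule: every member with an IR or PB site, every member with JX sites in at least 2 animals, the PKA subunits, Gnas and Gpr161, and list genes hit in at least 2 animals of a kind. The other JX hits are named singly as well, after their values were seen. Alternatives were other call thresholds, merging distances, credit, spread positions, gene body, donor chromosome, single animals and lanes.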

Additional observations from a re-analysis of the deposited data

Results flagged for a closer look

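Animals that entered no comparison also had counts in these genes. In no given arm animal 4, 2.49% of PB counts lay in the set, above the highest of the 5 control tumours (0.631%). They came from a Pde4d site in intron 3 at chr13:110496555 with 199 counts, which no compared animal listed within 100 bp. In no given arm animal 8, 0.824% of JX counts lay in the set, above the highest control tumour (0.639%). Its called sites were the 2 shared Pde3a positions, with 1315 and 297 counts.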

How the results depend on the processing

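Over all alternatives, 0 of the genes passed the adjusted test in any library kind, as in the main count. At 0.1% of the highest site, 1 of the 21 genes tested in JX libraries had an unadjusted p under 0.05 by Fisher's exact test. The number of genes hit moved with the call threshold. At 0.1% of the highest site, 34 genes were hit by IR, 41 by JX and 43 by PB sites, and at 5% the counts were 3, 6 and 3. A minimum of 100 counts left 7 genes for PB, and removing spread positions left 12 for JX. The difference of Pde3a in JX libraries (TAM+ minus TAM-, 4.17 percentage points) was -5.08 at 0.1% and -5.88 with credit to every calling animal, and that of Pde4d (-2.87) was 1.12 at 0.1%. At 0.1% Pde1c was hit in JX libraries of 0 TAM+ and 5 TAM- animals, a difference of -10.6 against -0.739. The difference of Pde7b in IR libraries rose from 2.78 to 10.4 at that threshold. The alternatives without lane 4 left-end JX libraries and without all 44 doubted libraries were added after seeing the data. They kept the numbers of genes hit within 1.5 times, but without all 44 the JX differences moved to -4.26 for Akap7 and Pde1c (both -0.739 before), 2.10 for Pde3a and -1.44 for Pde4d. Without animals whose donor chromosome is 10, 19 TAM+ and 10 TAM- animals remained. Pde7b was then hit in 1 TAM+ animal in IR and in 2 in JX and in PB libraries, and in 0 TAM- animals. Its difference was 5.26 in IR and 10.5 in JX and PB libraries, against 2.78. Akap7 in JX libraries was hit in 0 TAM+ and 1 TAM- animals, a difference of -10. The groups were smaller, and the number of animals hit did not rise. PB totals of as few as 1714 counts limit what a missing call shows. Low totals also let PB sites be called at few counts, because the threshold follows the animal's highest site. The PB totals were 10515 for the Adcy10 site and 18059 for the Pde4b and Pde7b sites of TAM+ animal 40. They were 10055 for Pde4a, 11387 for Pde8a and 13119 for Pde8b and Prkacb. The arm medians were 204964 (TAM+) and 216967 (TAM-). The permutation within lanes gave a smallest p of 0.447 and could not be run for IR. No paired analysis was possible because no label pairs animals across the arms, so the lane served as the block.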
